A study of Mus musculus with 6 samples.

Results

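The genes C1qa, C1qb and C1qc encode the A, B and C chains of complement component C1q. They were taken by symbol from a table of gene counts of mouse peritoneal macrophages, and are 3 of its 19973 genes. They were selected on the difference of their normalized counts between old and young in these same libraries, so their levels and the ratios among them are given below as a description, with no test. Macrophages of male C57BL/6 mice, an inbred laboratory strain, at 18 months of age (old) were set against those of male C57BL/6 mice at 2 months of age (young), with 3 libraries of each. All of the mice had received 200 µg of zymosan A, which is prepared from yeast cell walls and gives a passing inflammation, into the peritoneal cavity, and peritoneal cells were washed out 72 hours later. The cells of both ages were cultured overnight in medium conditioned by L cells, a source of the macrophage growth factor M-CSF. Unattached cells were then rinsed off, and the remaining macrophages were kept with vehicle (phosphate-buffered saline) for 6 hours before RNA was taken for TruSeq libraries. The macrophages of both ages had therefore met zymosan, adherence and culture, and no library from uninflamed or freshly isolated cells was analysed here.

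C1q is the recognition molecule of the classical complement pathway: it binds antibody on a surface, pentraxins or the surface of dying cells, and then activates the proteases C1r and C1s, which cleave C4 and C2. The A, B and C chains each carry a collagen-like stem and a globular head, assemble in equal numbers, and come from neighbouring genes. Unlike most complement proteins, which the liver makes, C1q is made mainly by macrophages and immature dendritic cells, and in macrophages it also aids the uptake of dying cells.

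The 3 genes lie side by side on chromosome 4 of GRCm38 (mm10), all on the minus strand, in an interval of 18675 bases. C1qb (ENSMUSG00000036905) spans positions 136880129 to 136886187, C1qc (ENSMUSG00000036896) spans 136889804 to 136893065, and C1qa (ENSMUSG00000036887) spans 136895917 to 136898803. The gaps between them are 3616 bases, from C1qb to C1qc, and 2851 bases, from C1qc to C1qa, and GENCODE release M21 places 0 other genes over any of the 3. The longest run shared by transcripts of any pair was 15 bases, between C1qb and C1qc, and no stretch of 35 bases of any chain occurs in transcripts of another gene. Reads of the 3 chains were therefore separable by sequence at that length.

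The stretches just upstream of C1qb and C1qc are shown because the chains lie together and had similar values over the 6 libraries, as given below. The windows come from RefSeq (GRCm38.p6), which holds 2 of the 3 genes, and are printed 5′ to 3′ on the strand of the gene, up to but not into the transcribed part as GENCODE or RefSeq draws it. Capitals mark TGCTGA, the core of the recognition element of Maf factors, and GAGGAA, the core bound by PU.1, in either orientation.
C1qb, chr4:136886201-136886450: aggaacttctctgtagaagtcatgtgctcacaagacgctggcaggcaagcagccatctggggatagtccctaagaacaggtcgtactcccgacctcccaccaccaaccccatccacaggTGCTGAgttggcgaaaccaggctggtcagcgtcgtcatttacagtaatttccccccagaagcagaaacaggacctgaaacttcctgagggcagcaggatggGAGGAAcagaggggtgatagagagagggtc
C1qc, chr4:136893066-136893164: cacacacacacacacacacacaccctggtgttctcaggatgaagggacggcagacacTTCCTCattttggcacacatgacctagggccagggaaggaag
In the C1qb window TGCTGA stood at -131 to -126 and GAGGAA at -30 to -25 from the RefSeq start, both on the strand of the gene. In the C1qc window GAGGAA stood on the other strand, read as TTCCTC, at -193 to -188 from the RefSeq start. The 151 bases of that window nearest the RefSeq start are not printed, because GENCODE places them inside the gene. TATAAA and GAAANNGAAA, the core of the interferon response element, were searched on both strands of the 250 bases upstream of each start and were found in neither window. Among 32817 upstream windows of the same length, TGCTGA was present in 16.1%, GAGGAA in 23.3%, TATAAA in 12.4% and GAAANNGAAA in 2.97%, so these letters are common. A match describes the letters of the window and is not a bound site.

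C1qa, the A chain, had normalized counts of 2391, 2513 and 1915 in the old libraries, against 5127, 5322 and 6512 in the young libraries. Every old library lay below every young one. The means were 2273 ± 316 in old and 5654 ± 749 in young macrophages (SD, n = 3 each). C1qa was thus 2.49-fold higher in young, a log2 difference of -1.32 (old minus young, SE from the spread 0.16).

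C1qb, the B chain and the one with the most reads in every library, had normalized counts of 3210, 3385 and 2604 in the old libraries, against 6550, 6611 and 7937 in the young libraries. The ages again did not overlap. The means were 3066 ± 410 in old and 7033 ± 784 in young macrophages (SD, n = 3 each), 2.29-fold higher in young, with a log2 difference of -1.20 (SE 0.15).

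C1qc, the C chain, had normalized counts of 2291, 2581 and 1984 in the old libraries, against 5023, 4804 and 5878 in the young libraries. The lowest young library still held 1.86 times the highest old one, as it held 1.94 times for C1qb and 2.04 times for C1qa. The means were 2285 ± 299 in old and 5235 ± 567 in young macrophages (SD, n = 3 each), 2.29-fold higher in young, with a log2 difference of -1.20 (SE 0.14). Of all 11795 genes with a mean normalized count of at least 10, 23.6% had every old library below every young one, 24.0% had every old library above every young one (47.5% either way), and 4.67% had a log2 difference at or below that of C1qb. Because the RNA is from bulk cultures, fewer cells that make C1q and less C1q RNA in each cell cannot be told apart.

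**Figure D1:**
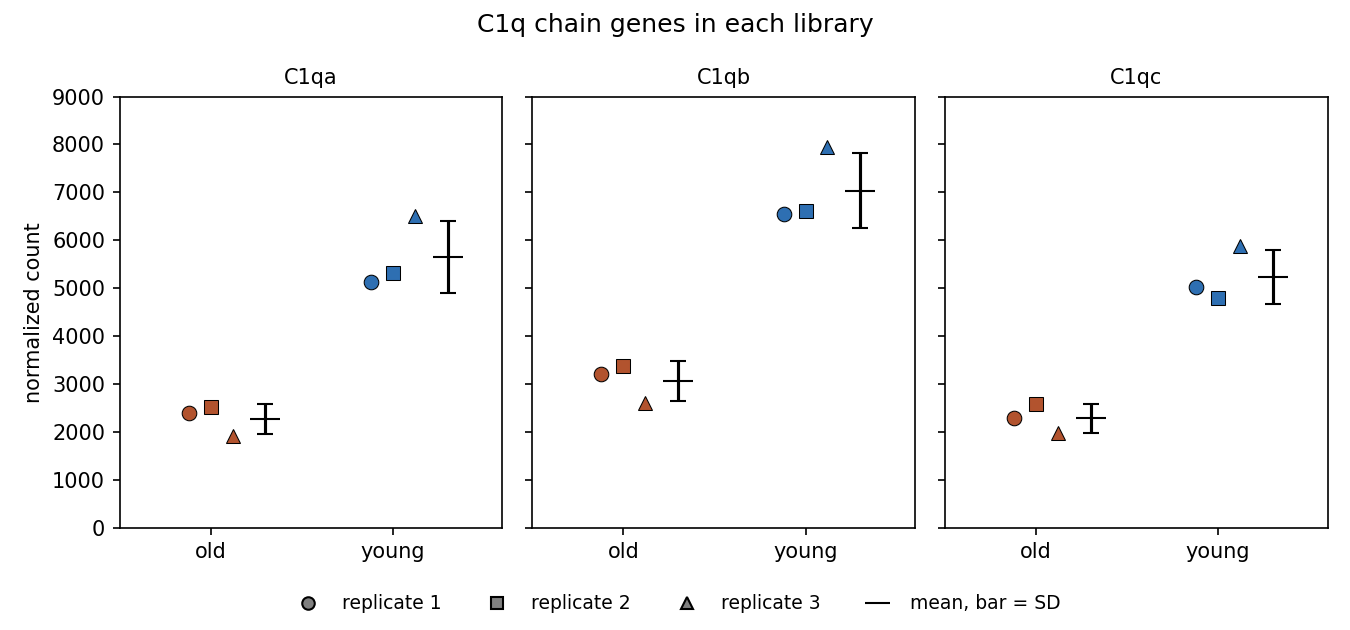
Normalized counts (reads divided by a size factor per library) of C1qa, C1qb and C1qc in 3 old and 3 young libraries; symbols mark the replicate number, and the horizontal mark and bar give mean and SD. The old libraries lie between 1915 and 3385 and the young ones between 4804 and 7937, and replicate 3 is the lowest old and the highest young library for every chain.

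Summed over the chains, C1q took 0.0718%, 0.0763% and 0.0627% of all reads in the old libraries, against 0.169%, 0.166% and 0.193% in the young libraries. The summed normalized count was 7625 ± 1015 in old and 17922 ± 2083 in young macrophages (SD, n = 3 each), and was 2.35-fold higher in young. The chains rested on 1508 to 3960 reads each in old libraries and 4994 to 9393 reads each in young libraries. Counting error was at most 2.58% of a value, for C1qa in old replicate 3, whereas the SD between libraries was 13.1% to 13.9% of the mean in old and 10.8% to 13.3% in young macrophages.

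The spread within each age came mostly from the libraries numbered 3. Old replicate 3 lay below the old mean by 0.24 (C1qa), 0.23 (C1qb) and 0.20 (C1qc) on the log2 scale, and young replicate 3 lay above the young mean by 0.21, 0.18 and 0.17. These 2 libraries also stood at opposite ends of the second principal component of all tested genes, which held 18.2% of the variance, and old replicate 3 had 1.34% of its reads on nuclear ribosomal RNA genes, against 0.0177% to 0.154% in the other 5 libraries. Without both of them, C1qa was 2.13-fold higher, C1qb 2.00-fold higher and C1qc 2.02-fold higher in young macrophages. The part of ribosomal RNA or of any other property of these libraries in the C1q values was not tested.

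The chains kept nearly the same proportions while their sum differed. The number of C1qa reads per C1qb read was 0.745, 0.742 and 0.736 in the old libraries, against 0.783, 0.805 and 0.820 in the young libraries. This ratio was lower in every old library than in any young one, 0.741 ± 0.00484 in old and 0.803 ± 0.0190 in young (SD, n = 3 each). The log2 difference of -0.12 (SE 0.02) is small beside the -1.20 of C1qb itself. In old libraries counting error was 1.84% to 2.58% for C1qa and 1.59% to 2.21% for C1qb, more than the old SD of the ratio. The exact 95% intervals for the share of C1qa in C1q reads overlapped between old replicate 1 (29.2% to 31.4%) and young replicate 1 (30.0% to 31.4%). How often ratios of other gene pairs keep the ages apart was not tested. The C1qc reads per C1qb read overlapped between ages, at 0.746 ± 0.0281 in old and 0.745 ± 0.0205 in young (SD, n = 3 each).

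The C1qa reads per C1qc read also overlapped, with 1.04, 0.974 and 0.965 in the old libraries, against 1.02, 1.11 and 1.11 in the young libraries. The log2 difference of this ratio was -0.12 (SE 0.05). The highest old value was that of replicate 1 and the lowest young value that of replicate 1, and these 2 make the overlap. The 3 ratios are not independent, since any 2 of them give the other.

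**Figure D2:**
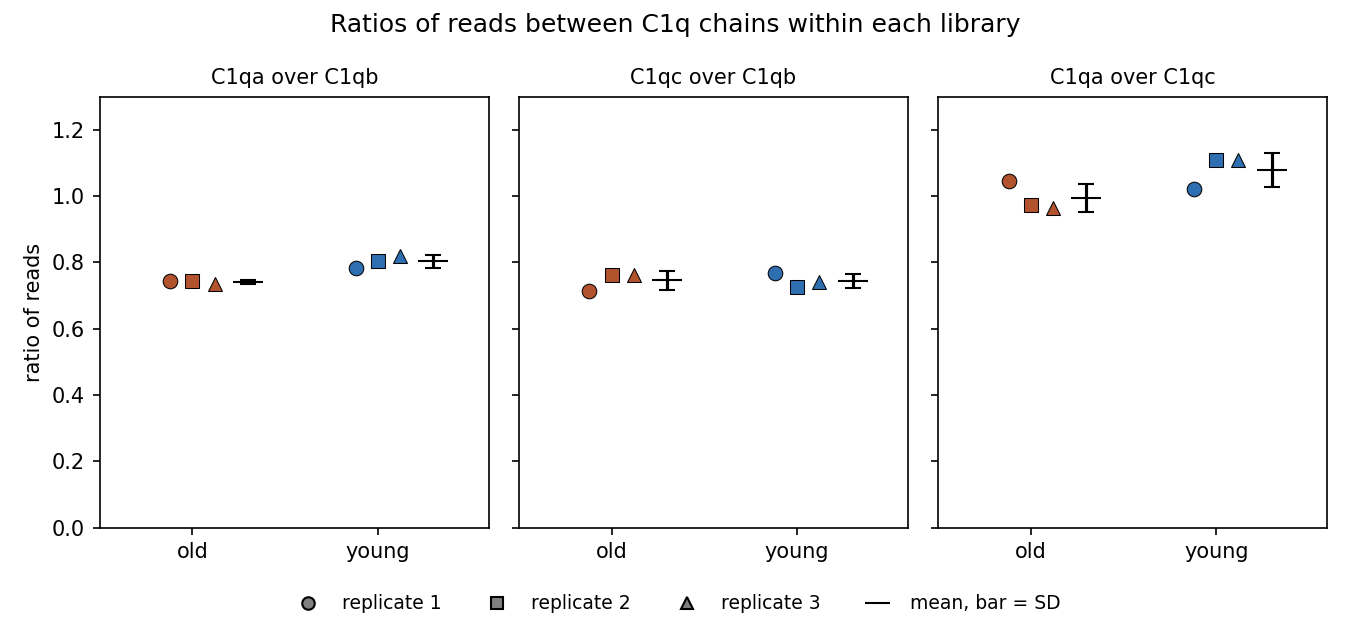
Ratio of reads (vertical axis, no unit) between pairs of C1q chains within each of 3 old and 3 young libraries; symbols mark the replicate number, and the horizontal mark and bar give mean and SD. C1qa over C1qb is 0.736 to 0.745 in old and 0.783 to 0.820 in young libraries, whereas the other pairs overlap between the ages.

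Levels of different genes can be set side by side only per length. Per base of merged exon, C1qb made up 45.5% of the C1q RNA in old and 44.3% in young macrophages, C1qa 35.3% in old and 37.2% in young, and C1qc 19.1% in old and 18.6% in young (means of 3 libraries). The low share of C1qc depends on the annotation. Its merged exons hold 1931 bases, which include a second, non-coding transcript, against 1088 for C1qb and 1040 for C1qa, and per base of the coding transcript (1203 bases for C1qc) its share was 27.5% in old and 26.8% in young. The order of the chains within an age, C1qb over C1qa over C1qc, held on both of these length scales, but per coding length, as in reads, C1qc stood slightly above C1qa in old (30.3% against 30.2% per coding length) and below it in young (29.5% against 31.9%). Per kilobase of merged exon and among 19917 genes with a length, C1qb had rank 111 in old and 28 in young, C1qa 148 in old and 34 in young, and C1qc 306 in old and 94 in young macrophages, so the 3 were among the more abundant transcripts at both ages.

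Most general macrophage genes were higher in old. Of 16 general macrophage genes, 12 were higher in old macrophages by limma with Benjamini-Hochberg adjustment over all tested genes (threshold 0.05), 0 were lower (also 0 lower at an unadjusted p under 0.05, by edgeR and by DESeq2) and 4 did not pass, and the median log2 difference was 0.51, against 0.00 over all tested genes. Under quantile normalization 10 were higher and 1, Laptm5, was lower (log2 difference -0.13, adjusted p = 0.0481). Across all tested genes 35.5% were called, 17.9% higher and 17.6% lower in old. The summed normalized count of the 16 ran from 510527 to 623333 in old libraries and from 363277 to 453916 in young libraries, and none of the 16 was at 0 in any age. The C1q difference was thus larger when set against macrophage genes. The C1q sum was 1.28%, 1.36% and 1.27% of the macrophage sum in the old libraries, against 4.60%, 4.28% and 4.48% in the young libraries, 3.42-fold higher in young. On this scale the SD between libraries fell to 3.80% of the mean in old and 3.55% in young, from 13.3% and 11.6% for the C1q sum alone.

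The size of that ratio depends on which macrophage genes carry it. Relative to Csf1r alone, the receptor for M-CSF, C1q stood at 38.5% ± 4.26 in old and 108% ± 7.36 in young (SD, n = 3 each), which makes it 2.81-fold higher in young. Relative to the sum of Laptm5, Tyrobp and Fcer1g, a lysosomal membrane protein and 2 signalling adaptors, it was 3.06-fold higher in young, and relative to the macrophage list without Lyz2, the lysozyme gene that dominates the list, 4.12-fold higher. Csf1r itself averaged 19751 ± 539 normalized counts in old and 16537 ± 819 in young (SD, n = 3 each, limma adjusted p = 0.0380), a call lost without old replicate 1 (adjusted p = 0.148), old replicate 2 (0.116), young replicate 1 (0.121) or young replicate 2 (0.159). Under quantile normalization its direction turned (log2 difference -0.03, adjusted p = 0.615).

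**Figure D3:**
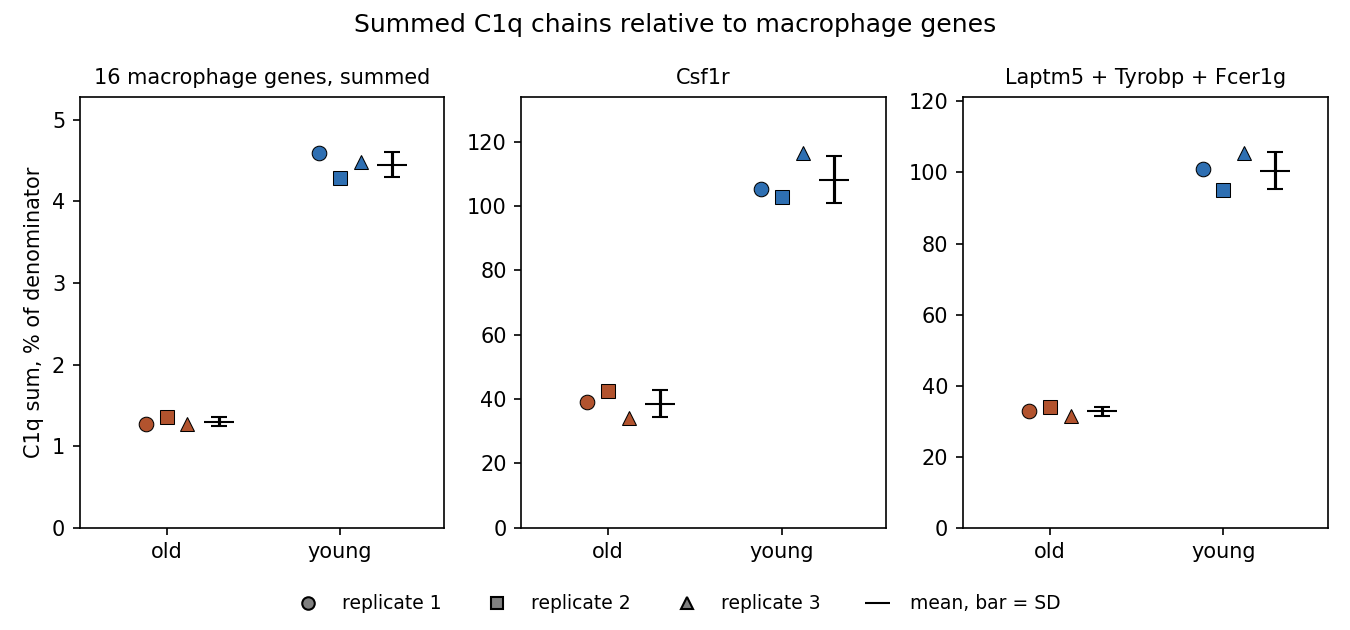
Summed C1q normalized counts as a percentage of the sum of 16 macrophage genes, of Csf1r, and of Laptm5, Tyrobp and Fcer1g together, in 3 old and 3 young libraries; symbols mark the replicate number, and the horizontal mark and bar give mean and SD. Old libraries lie below young ones on each scale, at 1.27% to 1.36% against 4.28% to 4.60% of the macrophage sum.

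The cultures of the 2 ages also differed in marker genes of other cells and in cycling genes. All 12 tested B cell genes of 13 were higher in old by limma, against 17.9% of all tested genes. Genes sparse in young, such as Igkc below, reached the filter mean of 10 only through the old libraries, which favours calls in that direction. With no filter, 13 of 13 were called higher, where 21.1% of all genes were called in either direction. Together the 13 took 0.0167% to 0.0313% of reads in old libraries and 0.00125% to 0.00136% in young ones, where Fcer2a was the only listed gene at 0 in all 3. Ighm, the heavy chain of IgM, averaged 1407 ± 501 normalized counts in old and 39.5 ± 5.87 in young, and Igkc, the kappa light chain, 498 ± 184 in old and 5.27 ± 3.49 in young (SD, n = 3 each). Of 6 tested mast cell genes 5 were higher in old (83.3%, against the same 17.9%). Of 22 cell cycle genes 21 were lower in old (95.5%, against 17.6% of all tested genes). They were led by Mki67, a marker of dividing cells, with 1353 ± 90.0 normalized counts in old and 11601 ± 550.5 in young (SD, n = 3 each). The 22 took 0.106% to 0.113% of reads in old libraries and 0.399% to 0.421% in young ones. The part of these cells and of cycling in the C1q difference was not tested.

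The macrophage subset lists did not move as one. Of 12 tested genes of large resident peritoneal macrophages, 5 were higher in old (41.7%, against 17.9% of all tested genes) and 1 lower (8.33%, against 17.6%). The median log2 difference was 0.43. Gata6, which sets the identity of these macrophages, averaged 9.99 in old and 14.9 in young libraries without passing (limma adjusted p = 0.263). Leaving out old replicate 3 raised the 5 to 8, and leaving out old replicate 2 lowered it to 3. Of 15 tested genes of small peritoneal macrophages and monocytes, 6 were higher and 5 lower in old. Among the most abundant of these, Saa3 (large resident list), an acute phase protein, was 2.43-fold higher in old, and Fn1 (small macrophage list), fibronectin, was lower in old with a log2 difference of -2.81 (adjusted p of 5.32e-05 and 4.12e-07 by limma).

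No tested gene of the list of proteases that C1q activates and their inhibitor passed in the main fit. C1ra, which encodes C1r, averaged 72.3 ± 18.2 normalized counts in old against 58.1 ± 12.5 in young macrophages (limma adjusted p = 0.342), and C1s1, which encodes C1s, 19.7 ± 16.1 in old and 10.7 ± 3.93 in young (adjusted p = 0.418; SD, n = 3 each). Of the 3 tested genes of this list, limma called 0 (against 35.5% of all tested genes), with 1 higher at an unadjusted p under 0.05, 1 by edgeR and 0 by DESeq2. The list had a median log2 difference of 0.60. The ages did not overlap in 1 of the 3, which was neither C1ra nor C1s1 (47.5% of all tested genes did not overlap). Without old replicate 3, C1ra passed as higher in old (adjusted p = 0.0462). Without both libraries numbered 3, C1ra (log2 difference 0.68, adjusted p = 0.00436) and C1s1 (1.25, 0.0214) passed as higher. Both genes had far fewer counts than any C1q chain.

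Substrates further down the pathway were higher in old, where the C1q counts were lower. C3, the central complement protein, averaged 2906 ± 79.5 normalized counts in old and 1128 ± 145 in young, and C4b, which C1s cleaves, 704 ± 12.9 in old against 286, 271 and 343 in the young libraries (SD, n = 3 each; limma adjusted p = 4.03e-06 and 1.07e-05), so both were higher in old in every library. C2 was near the floor, with 1.27 to 4.78 normalized counts in old and 1.01 to 1.75 in young libraries. Of the 10 listed genes downstream of C1, 2 were tested and both were higher in old, against 17.9% of all tested genes.

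Receptors and binding partners of C1q went both ways. Of 20 listed, 14 were tested, with a median log2 difference of 0.17. Under quantile normalization the median was -0.13, with 6 higher and 7 lower in old. In the main fit, 6 were higher in old (42.9%, against 17.9% of all tested genes) and 4 lower (28.6%, against 17.6%). Higher were the subunits of complement receptor 3, Itgb2 (30022 ± 2256 in old and 16257 ± 1335 in young, adjusted p = 0.000142) and Itgam (log2 difference 0.37, adjusted p = 0.00825), and Lair1, an inhibitory receptor for collagen-like stems (2589 ± 76.3 in old and 1624 ± 62.1 in young, adjusted p = 3.97e-05; SD, n = 3 each, limma). Cr2, a complement receptor of B cells, had 21.5, 27.4 and 25.4 normalized counts in the old libraries and 0 in all 3 young libraries.

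Lower in old was Cspg4, a proteoglycan, with 0, 1.71 and 2.54 normalized counts in the old libraries, against 43.3, 30.7 and 43.1 in the young libraries (limma adjusted p = 0.000359). Cspg4 reached the filter mean of 10 only through the young libraries, which favours a call as lower. Fzd4, a Wnt receptor, was lower with a log2 difference of -1.03 (adjusted p = 0.0201), a call lost when old replicate 2 (0.0703), young replicate 1 (0.0670) or young replicate 2 (0.0690) was left out. C1qbp, a mostly mitochondrial protein that binds the globular heads, was lower by less, at -0.32 (adjusted p = 0.0246), lost when old replicate 1 (0.100), young replicate 2 (0.107) or young replicate 3 (0.0711) was left out.

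Small differences in this list depended on single libraries, and with any library other than old replicate 3 left out 1 or 2 genes were called lower. Cr1l, a membrane complement regulator, was higher in old with a log2 difference of 0.29 (limma adjusted p = 0.0332), and its adjusted p was 0.114 without old replicate 1, 0.103 without old replicate 2, 0.119 without young replicate 1 and 0.0928 without young replicate 2. Lrp6, a Wnt co-receptor, was lower with -0.23 (0.0419), and it kept its call without old replicate 3 but not without any other single library (0.0602 to 0.176 without old replicate 1 or 2 or young replicate 1, 2 or 3). The most abundant of the members that did not pass were Lrp1, an uptake receptor (log2 difference -0.30, adjusted p = 0.104, and 0.0116 without old replicate 3), and Calr, calreticulin (0.20, adjusted p = 0.249, and 0.0386 without old replicate 3). With quantile normalization Lrp1 passed as lower (-0.62, adjusted p = 0.0135), and Calr turned in direction without passing (-0.10, 0.356).

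Of 28 listed genes with a globular C1q domain, 5 were tested and 1 (20.0%, against 17.6% of all tested genes) was lower in old, namely Emilin1, a matrix glycoprotein (504 ± 26.9 in old and 740 ± 39.5 in young, limma adjusted p = 0.000433), while Emilin2 (adjusted p = 0.197) and C1qtnf12 (0.193) did not pass. None was higher by limma, also at an unadjusted p under 0.05, by edgeR and by DESeq2. Emilin2 (log2 difference -0.15) passed as lower under quantile normalization (-0.42, limma adjusted p = 0.000148) and with reads scaled to the library total. Of 4 tested defence collagens and lectins, Fcna, a ficolin of the lectin pathway (589 ± 70.4 in old and 262 ± 14.9 in young), and Colec12, a collectin on the cell surface (223 ± 20.5 in old and 141 ± 8.54 in young), were higher in old. Marco, a scavenger receptor with a collagen-like stem, was lower, at 114 ± 20.7 in old and 681 ± 65.0 in young (SD, n = 3 each; adjusted p = 2.50e-05, 0.00133 and 1.14e-06), and Msr1, a related receptor, did not pass (0.501).

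Of 14 tested enzymes that modify and fold collagen-like stems, 3 were higher and 3 lower in old by limma (21.4% each way, near the 17.9% and 17.6% of all tested genes), with a median log2 difference of 0.01. Leaving out old replicate 3 raised the higher count to 5, and leaving out old replicate 2, young replicate 1 or young replicate 2 lowered it to 1. Plod3 (0.44, adjusted p = 0.00139) was higher, whereas Plod1 (-0.39, 0.00271) and P4ha2 (-0.87, 0.00101) were lower; Plod genes encode lysyl hydroxylases and P4ha2 a prolyl hydroxylase subunit. Colgalt1, which adds galactose to hydroxylysine, was higher with 0.30 (0.0126), lost when old replicate 2 (0.0549), young replicate 1 (0.0550) or young replicate 2 (0.0706) was left out.

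Crtap and P3h1, partners in prolyl 3-hydroxylation, had opposite signs. Crtap stood at 0.24 (limma adjusted p = 0.0415), lost without old replicate 1 (0.122), old replicate 2 (0.134), young replicate 1 (0.144) or young replicate 2 (0.115), and P3h1 at -0.42 (0.0180), lost when old replicate 1 (0.0665), young replicate 2 (0.0514) or young replicate 3 (0.0579) was left out. The most abundant members that did not pass were P4hb, protein disulphide isomerase (0.03, adjusted p = 0.815), and Ppib, cyclophilin B (0.24, 0.156, and 0.00594 without old replicate 3). P4hb passed as lower under quantile normalization (-0.26, adjusted p = 0.00713).

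Transcription factors that have been tied to C1q genes or to resident macrophages went in both directions, with a median log2 difference of 0.12. Of 27 tested, 9 were higher in old (33.3%, against 17.9% of all tested genes) and 7 lower (25.9%, against 17.6%). Irf8, an interferon regulatory factor of the monocyte lineage, had normalized counts of 1291, 1427 and 1403 in the old libraries, against 2596, 2491 and 2434 in the young libraries (log2 difference -0.87, SE 0.07, limma adjusted p = 1.06e-05). It was lower in every old library than in any young one. The part of any of these factors in the C1q difference was not tested.

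Mef2a, a myocyte enhancer factor, was lower in old as well, with 3330 ± 257 in old and 5666 ± 379 in young (SD, n = 3 each, limma adjusted p = 8.99e-05), and Rxra, the partner of several lipid-sensing receptors, with a log2 difference of -0.29 (0.00675). Higher in old were Mitf (1476 ± 47.5 in old and 834 ± 24.4 in young, SD, n = 3 each, adjusted p = 1.04e-05) and Maf (2395 ± 175 in old and 1930 ± 36.9 in young, SD, n = 3 each, 0.00837), a Maf family factor. Spi1, which encodes PU.1, was higher with 0.27 (0.0221), lost without old replicate 1 (0.0676), old replicate 2 (0.0878), young replicate 1 (0.0558) or young replicate 2 (0.109), and Mef2c with 0.31 (0.0124), lost without old replicate 1 (0.0582) or old replicate 2 (0.0523). Zeb2 (-0.04, adjusted p = 0.744) and Stat6 (0.17, 0.0888, and 0.0359 without old replicate 3) did not pass.

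Genes that mark C1q-rich macrophage states went both ways, with a median log2 difference of -0.35. Of 22 tested, 12 were lower in old (54.5%, against 17.6% of all tested genes) and 7 higher (31.8%, against 17.9%). Stab1, a scavenger receptor, stood at 7629 ± 608 in old and 19358 ± 723 in young, F13a1, a coagulation factor subunit, at 1320 ± 99.9 in old and 4736 ± 496 in young (SD, n = 3 each; limma adjusted p = 2.85e-06 and 7.02e-07), and Mrc1, the mannose receptor, at a log2 difference of -0.38 (0.0143). Others of these states were higher in old, among them Trem2, a lipid receptor (3531 ± 127 in old and 2717 ± 147 in young, adjusted p = 0.00225), and Cd5l, a protein secreted by macrophages (1930 ± 343 in old and 1178 ± 186 in young, SD, n = 3 each, 0.00479). Apoe, apolipoprotein E, did not pass (0.09, 0.586), nor did Ms4a6c (-0.13, 0.356).

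**Figure D4:**
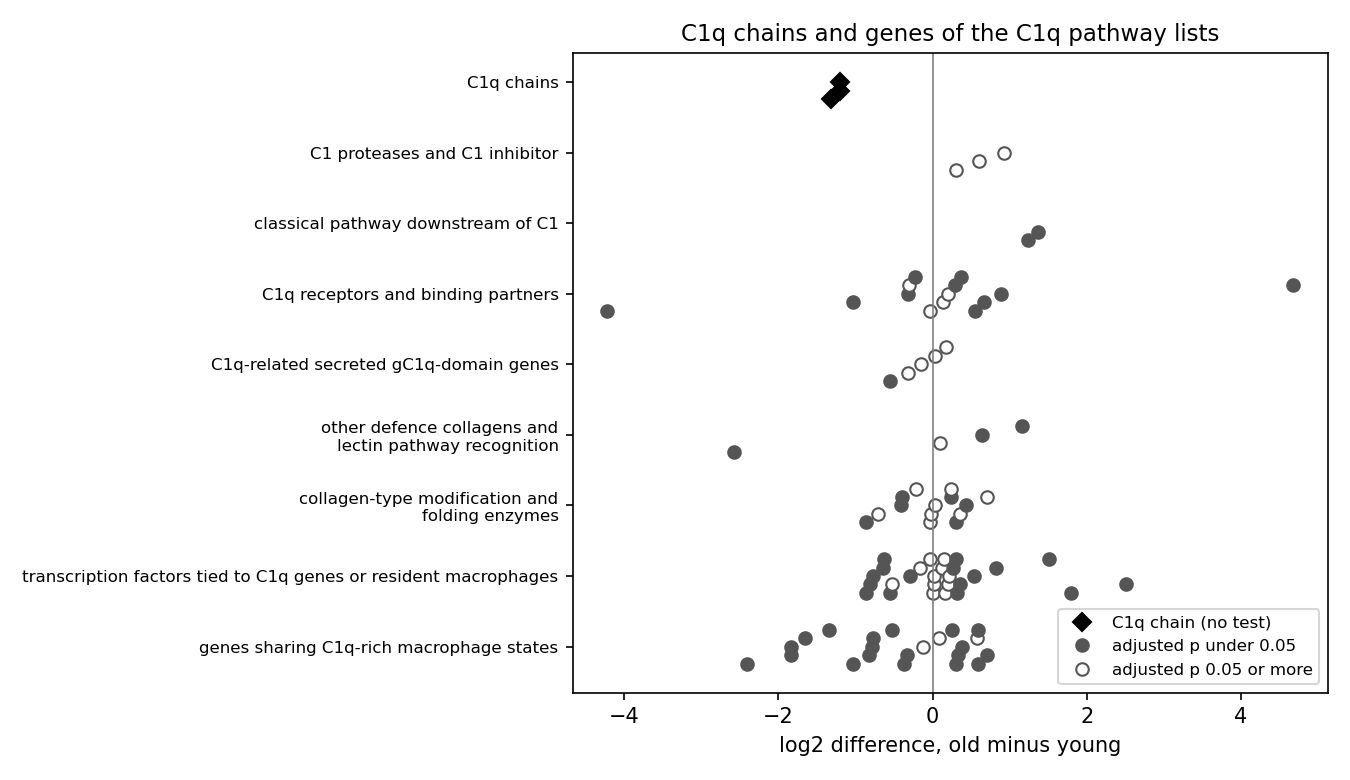
Log2 difference (old minus young, horizontal axis) of the C1q chains (diamonds, no test) and of every tested gene of 8 lists around C1q (circles, 1 per gene, with vertical offset for visibility); filled circles have a limma adjusted p under 0.05. The chains lie at -1.32 to -1.20, the downstream genes C3 and C4b lie at 1.37 and 1.24, the 3 tested genes of the C1 proteases and their inhibitor lie above 0 without passing, and the other 6 lists hold genes on both sides of 0.

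Around the C1q genes, 11 other protein-coding genes begin or end within 500 kb, of which 4 passed the filter on low counts, 3 did not and 4 were not among the genes of the table. Of the 4 tested, Luzp1, which encodes a cytoskeletal protein, was lower in old, as were 17.6% of all tested genes. It had 513, 495 and 507 normalized counts in the old libraries, against 1675, 1792 and 1762 in the young libraries (log2 difference -1.79, SE 0.06, limma adjusted p = 1.06e-07), and its nearest end is 325349 bases from C1qb. Luzp1 overlaps the end of Kdm1a on the opposite strand, and without strand their shared reads cannot be told apart.

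The other 3 tested neighbours did not pass. Zbtb40, a zinc finger gene 80929 bases beyond C1qa, had a log2 difference of -0.11 (limma adjusted p = 0.467) and Kdm1a, a histone demethylase gene 277406 bases beyond C1qb, 0.08 (0.454). Cdc42, which encodes a small GTPase, lies 420893 bases beyond C1qa and had 0.23 (0.121, and 0.00514 without old replicate 3). Its direction turned under quantile normalization (-0.08, adjusted p = 0.334). None of the 4 was higher by limma, also at an unadjusted p under 0.05 and by edgeR, and 1 was higher by DESeq2.

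**Figure D5:**
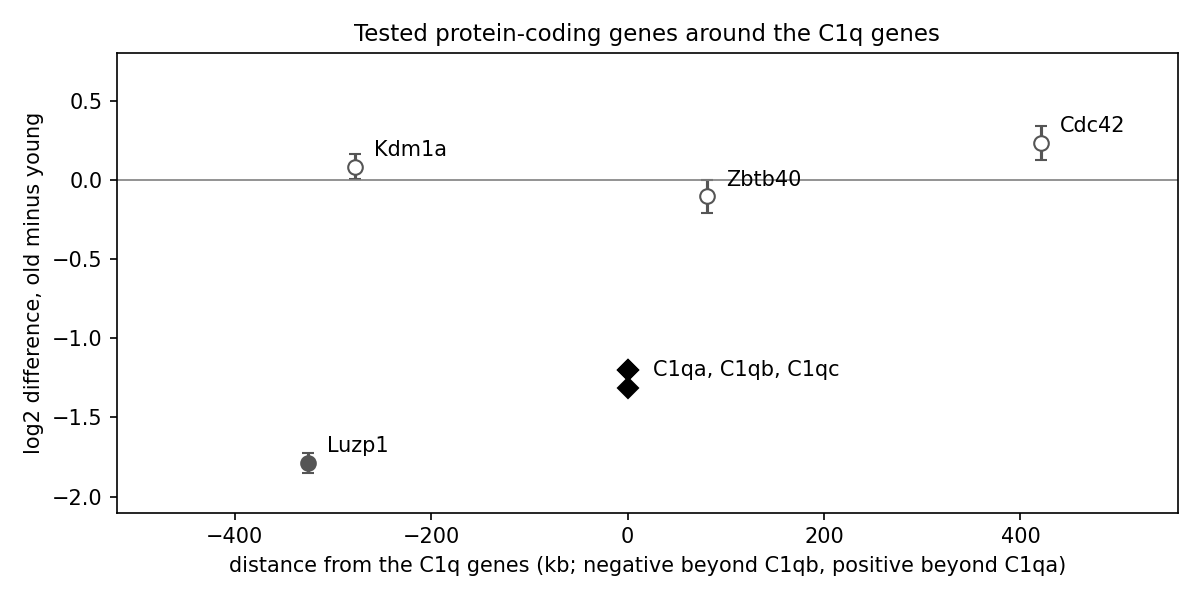
Log2 difference (old minus young, vertical axis, bars give the SE from limma) of the 4 tested protein-coding genes within 500 kb of the C1q genes, by distance in kb; the chains are diamonds at distance 0 without a test, and a filled circle has an adjusted p under 0.05. Luzp1 lies at -1.79 and the other 3 neighbours between -0.11 and 0.23.

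The chains had similar profiles over the libraries. The root mean square distance between centred log2 profiles over the 6 libraries was 0.032 from C1qb to the mean of the other 2 chains, 0.055 from C1qc and 0.068 from C1qa. Among 9284 other genes with a mean normalized count of at least 50, the nearest to the mean of the 3 chains were Asf1b, a histone chaperone (0.067), Shmt1, a serine hydroxymethyltransferase (0.071), Sla, an adaptor of antigen receptor signalling (0.076), and Cd244a, a receptor of the SLAM family (0.079). They were followed by Ptgs1, cyclooxygenase 1 (0.095), the transcript AI506816 (0.097), Hcar2, a receptor for nicotinic acid (0.097), and Kpna2, an importin (0.097). These profiles share libraries and are mostly the difference between the ages, and Asf1b lay as near to the chains as C1qa did to the other 2, so nearness says which genes had a similar size of difference and a similar spread.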

How the data were processed

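The values are the authors' deposited normalized counts, which are of the kind signal: read numbers scaled by 1 size factor for each library, for 19973 genes. The submitters' processing notes name DESeq2 and mm10, with no versions; for the aligner, counter, annotation and strand setting, the entry is: not given in the sources used here. Only vehicle libraries were analysed here. Each column consists of whole multiples of 1 step, so reads were recovered (100% whole within 0.01 reads), with totals of 8163016 to 13007604 per library. Symbols, positions and exons are from GENCODE M21 on GRCm38, and 19917 identifiers matched a symbol while 56 did not.

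Tests used limma 3.58.1 with trend in R 4.3.3 on log2(normalized count + 1), for 11795 genes with a mean of at least 10, all 6 libraries in 1 fit, with Benjamini-Hochberg adjustment across the tested genes and a threshold of 0.05. Log2 differences run old minus young and are too small for genes with few counts, and fold values are ratios of mean normalized counts. A gene near the floor at 1 age passes the filter only through the other age, which favours calls in that direction. The script was tested on simulated data. A sentence on the design gives 3 mice per group and sequencing in triplicate and does not say which of these a library is. The spread behind the p-values is that between libraries and may be technical in part. Within an age, pairs of libraries differed by 1.49 to 4.67 times the sampling noise, so no pair was taken as 1 library deposited more than once, and each was entered as 1 sample. Whether they are separate mice was not tested.

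The chains and the 19 gene lists were chosen with earlier results of these data known. Named are the chains, from each of 8 lists around C1q up to 4 genes passing in each direction and 2 not passing with the highest means, C2, C3 and C4b, the tested neighbours, the 8 nearest profiles, and from each of 11 lists of cell types the 2 genes with the highest mean. Cr2 and Gata6 were named after their values were seen. Some results under this rule are not reported here. Replicate numbers were not taken to pair the libraries. Alternatives were other pseudocounts (0.5, 5), filters (none, 50), scalings, limma without the trend, the replicate block, each library left out, both libraries numbered 3 left out, edgeR 4.0.16 and DESeq2 1.42.0 on the recovered reads, other length scales and other macrophage denominators. The coding transcript length was chosen after seeing the data. Without strand, reads of genes that overlap on opposite strands, such as Fcna, Stab1, F13a1, Maf and Mitf with their antisense partners, cannot be told apart.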

Additional observations from a re-analysis of the deposited data

How the results depend on the processing

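All 3 chains were lower in old macrophages under every alternative run, with the smallest differences without both libraries numbered 3: -1.09 for C1qa, -0.997 for C1qb and -1.01 for C1qc (log2). Leaving out single libraries gave -1.39 to -1.20 for C1qa, -1.28 to -1.09 for C1qb and -1.29 to -1.10 for C1qc, and quantile normalization gave -1.39 for C1qb. The C1qa over C1qb ratio ranged from -0.13 to -0.10 (log2, old minus young) with single libraries left out, C1qa over C1qc from -0.16 to -0.10, and C1qc over C1qb from -0.02 to 0.03. With reads not divided by length, C1qa, C1qb and C1qc made up 29.8%, 40.2% and 30.0% of C1q in old and 31.5%, 39.3% and 29.2% in young; per coding length, 30.2%, 39.5% and 30.3% in old and 31.9%, 38.5% and 29.5% in young; per coding transcript, 31.6%, 40.8% and 27.5% in old and 33.4%, 39.8% and 26.8% in young. With single libraries left out, the shares per merged exon were 35.1% to 35.5%, 45.4% to 45.7% and 19.0% to 19.5% in old, and 36.9% to 37.6%, 44.2% to 44.4% and 18.3% to 18.8% in young. The log2 difference of C1q relative to the macrophage sum (-1.77) ran from -1.80 to -1.75 with single libraries left out, and was -1.85 relative to the geometric mean of the list, -1.49 relative to Csf1r and -1.61 relative to Laptm5, Tyrobp and Fcer1g. The 4183 genes called between the ages became 6960 without both libraries numbered 3, and 2940 to 5660 with single libraries left out; 4324 were called by edgeR and 3743 by DESeq2. Of the 90 tested genes in the lists around C1q, 28 were higher and 28 lower in old (62.2% called, against 35.5% of all tested genes), against 43 higher without both libraries numbered 3 (2 of the C1 proteases and inhibitor, 6 collagen enzymes, 14 transcription factors), and 21 to 34 higher and 23 to 29 lower with single libraries left out. By Pearson correlation, the 8 nearest genes shared 0 with the 8 given, whose correlations were 0.988 to 0.996 over 6 libraries. Same-numbered libraries deviated in opposite directions (correlations of -0.68 to -0.36 over genes). Deviations from a mean of 3 libraries are tied to each other, so these correlations cannot exclude pairing by number. The main fit did not use the numbers. The replicate block gave 2643 called genes, and Itgam, Cr1l, Lrp6, C1qbp, Fzd4, Colgalt1, Crtap, P3h1, Maf, Spi1, Mef2c, Rxra, Csf1r and Mrc1 did not pass under it (limma adjusted p of 0.0560 to 0.213). Under quantile normalization Calr, Msr1, P4hb, Csf1r, Apoe, Cdc42 and Adgre1 turned from a positive to a negative log2 difference. Of these, P4hb passed as lower in old under that scaling, as did Lrp1, Emilin2 and Zeb2. The causes of these shifts were not tested.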

Other observations

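Further genes of the cell type lists are given here. Their levels are RNA of whole cultures and do not count cells. Of the macrophage list, Lyz2, the lysozyme gene, had 348663 ± 45133 in old and 268077 ± 35170 in young libraries without passing (limma adjusted p = 0.221), and Ctss, a cathepsin, was 2.43-fold higher in old (0.000116). Adgre1, which encodes F4/80, did not pass (log2 difference 0.29, adjusted p = 0.0738, 0.00600 without old replicate 3 and 0.0176 without young replicate 3). Its direction turned under quantile normalization (log2 difference -0.02, adjusted p = 0.805). Top2a, a topoisomerase of dividing cells, was 5.13-fold higher in young (1.01e-07), and the mast cell proteases Tpsb2 and Cma1 were 9.24-fold and 11.6-fold higher in old (1.93e-05 and 3.68e-06).

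Lists of sparse cells mostly lay near the floor, and few of their genes were tested (of all tested genes, 17.9% were higher and 17.6% lower in old). Of 12 dendritic cell genes 3 were tested and 2 were higher in old, with Ccr7, a homing receptor, at 30.5 ± 7.80 in old and 7.47 ± 1.37 in young (limma adjusted p = 0.00226) and Fscn1, fascin, not passing (0.327, and 0.0221 without old replicate 3). With any single library other than old replicate 3 left out 1 of them passed, and without old replicate 3 the count was 3. Of 3 tested neutrophil genes 2 were higher and 1 lower in old, with S100a8, a calgranulin, at 591 ± 74.0 in old and 214 ± 27.6 in young (1.96e-05) and Mmp9, a gelatinase, at 347 ± 36.5 in old and 500 ± 48.5 in young (0.00396). In the T and NK cell list 1 gene was tested, Lck, a kinase, at 20.2 ± 4.49 in old and 3.30 ± 0.255 in young (0.00257). With old replicate 1 or 2 left out, Lck was below the filter and not tested. Lck and Ccr7 reached the filter mean of 10 only through the old libraries, so the filter favoured genes higher in old. Klrb1c, a natural killer cell receptor below the filter, had 10.1 ± 0.678 in old and 4.03 ± 1.81 in young.

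In the eosinophil list 1 gene was tested, Il5ra, the interleukin 5 receptor, at 26.4 ± 4.21 in old and 1.55 ± 1.38 in young (limma adjusted p = 0.00139). Ccr3, a chemokine receptor below the filter, had 8.41 ± 2.96 in old and 5.33 ± 2.45 in young and overlapped between the ages. With 1 tested gene, which reached the filter mean of 10 only through the old libraries, a difference in eosinophils was not established. Of 5 tested genes of mesothelium and fibroblasts 2 were higher and 1 lower in old, with the collagen genes Col1a1 at 159 ± 12.3 in old and 253 ± 44.4 in young (0.00407) and Col1a2 at 230 ± 45.1 in old and 272 ± 29.7 in young (0.198, and 0.0454 without old replicate 1). All values of these lists are normalized counts, as mean ± SD with n = 3 each.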
